A study of Mus musculus with 4 samples.

Results

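Cluster 30 of the posterior hindbrain, which the authors named after the genes *Zfp804b* and *Npas1*, is a set of neuronal nuclei. Its members were all nuclei that passed the authors' quality filter and that their table of nuclei assigns to this cluster, 219 nuclei of 12539 neuronal nuclei and of 39461 kept nuclei in all. By number of nuclei it was second among 134 neuronal clusters. The cluster was built from gene expression, so its levels beside those of other neurons are given as a description, without a test, and tests were made only between the groups of mice.

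The study dissected the part of the hindbrain that holds the area postrema and the nucleus of the solitary tract (NTS) and sequenced single nuclei sorted on a DNA dye, in 4 libraries, 2 of the control genotype and 2 of the AgRP-Gq;POMC-Gi genotype. In AgRP-Gq;POMC-Gi mice, Cre under the AgRP gene switches on the activating receptor hM3DGq in AgRP neurons, and Dre under the POMC gene switches on the inhibiting receptor hM4DGi in POMC neurons. The labels call the control genotype WT. The study's methods describe controls as offspring of the same cross, with both receptor alleles but neither recombinase. All mice, also the controls, received the receptor ligand clozapine N-oxide (CNO), 3 mg for each kg of body weight, and were killed 1 h later without access to food. They were 12 to 20 weeks old, of both sexes and of the C57BL/6 background. The methods say that samples of one condition were pooled, from 2 mice in each group, and do not say which mice stand behind each library. The p-values therefore measure the spread between libraries, part of which may be technical. The AgRP-Gq;POMC-Gi libraries also differed in their share of male and female RNA, as given below. AgRP neurons lie in the hypothalamus, and POMC neurons lie there and, in smaller number, in the NTS.

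Neurons of this region sort visceral signals and drive breathing, swallowing, autonomic outflow and movement. Their classes are laid down in the embryo by homeodomain and other transcription factors, many of which stay detectable in the adult, and excitatory classes package glutamate with the transporter encoded by *Slc17a6*, whereas inhibitory classes package GABA and glycine with the transporter encoded by *Slc32a1*. *Npas1* encodes a basic helix-loop-helix PAS transcription factor and *Zfp804b* a zinc-finger protein.

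Control replicates 1 and 2 held 59 and 43 nuclei of the cluster, and the AgRP-Gq;POMC-Gi pair held 82 and 35. Their unique molecular identifiers (UMIs), each of which stands for 1 captured RNA molecule, summed to between 471121 and 1073487 per library. The median nucleus held 13154 UMIs and 4562 genes, against 8630.5 UMIs in the other neurons and 2460 in oligodendrocytes. Shares of nuclei with a UMI therefore follow depth as well as level. Those of the name genes and of *Onecut2* are also given after each nucleus was thinned to 2000 UMIs. No cell barcode of the cluster was shared between libraries, and 19 to 36 barcodes were shared by each pair of libraries among all kept nuclei. The libraries differed in ways the groups do not explain. *Ttr*, the transthyretin gene of the choroid plexus, made up 735 of every 1000000 UMIs (CPM) of the cluster in control replicate 2 and 448 in AgRP-Gq;POMC-Gi replicate 2, but 1.11 and 3.73 in the first replicates. *Xist*, which only female cells express, stood at 19.1 CPM in AgRP-Gq;POMC-Gi replicate 2 and at 269 to 415 in the other libraries, which held male RNA too, with the Y-linked *Uty* at 30.7 to 80.9 CPM against 185 in AgRP-Gq;POMC-Gi replicate 2.

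Both name genes were above their level in other neurons, *Npas1* by more than *Zfp804b*. *Npas1* (chr7:16455721-16477728, GRCm38) measured 70.9 and 96.9 CPM under control genotype against 70.8 and 99.8 with AgRP-Gq;POMC-Gi, a mean of 84.6 ± 15.9 (SD, n = 4 libraries) against 7.47 in all other neurons, 11.3-fold. It was detected in 40.2% of the cluster's nuclei, in 4.46% of other neurons and in 0.268% of oligodendrocytes. The cluster ranked 4 for it, after clusters 132 (123 CPM), 120 (88.1) and 119 (86.1), and the last 2 lay within the spread between the libraries of cluster 30. *Zfp804b* (chr5:6769010-7344756) measured 2010, 1435, 1134 and 1320 CPM in the same order, 1475 ± 378 against 618 in other neurons. It was detected in 85.4% of nuclei of the cluster but also in 47.0% of other neurons, with 1.005% of oligodendrocytes, and 9 clusters were higher, up to 3524 CPM in cluster 150. Clusters 28 and 67, among the 3 most like cluster 30, stood at 1047 ± 198 and 1068 ± 888 CPM of *Zfp804b*. At 2000 UMIs per nucleus *Npas1* was found in 12.8% of the cluster and 1.39% of other neurons, and *Zfp804b* in 64.8% and 34.4%.

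**Figure D1:**
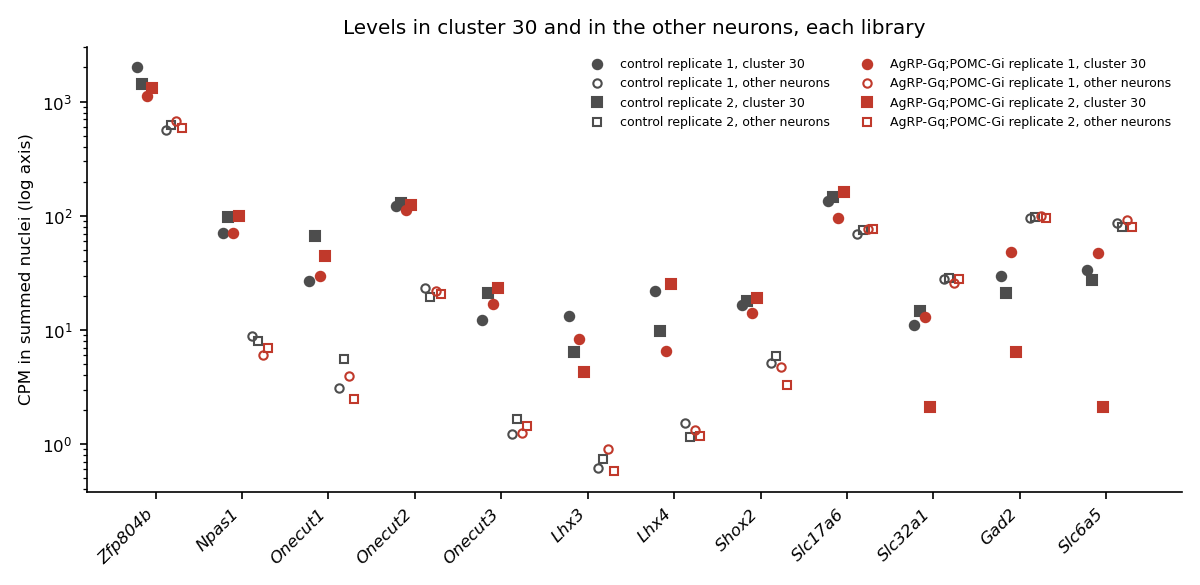
Levels of 12 genes in CPM (log axis) in the summed nuclei of cluster 30 (filled symbols) and of all other neurons (open symbols), 1 symbol per library, control in grey and AgRP-Gq;POMC-Gi in red. *Npas1* lies between 70.8 and 99.8 CPM in the cluster and under 9 CPM in other neurons in every library, whereas *Slc6a5* spans 2.12 to 47.5 CPM in the cluster.

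Beside *Npas1*, the genes of the Onecut family and the transcription factor genes *Lhx3*, *Lhx4*, *Shox2* and *Sox14* were several-fold above other neurons. Other factors were not. Of 43 listed ones compared, 13 were more than 2-fold above other neurons and 9 under 0.5 times, and *Pax2* ranked 62 among neuronal clusters. Onecut factors are known from early-born neurons of the spinal cord and brainstem. *Onecut2* measured 122 and 131 CPM under control genotype against 112 and 125 with AgRP-Gq;POMC-Gi, a mean of 122 ± 8.01 against 21.4 in other neurons, and ranked second after cluster 67 (135 CPM). The 4 libraries lay close together, and the gene was found in 68.9% of the cluster and in 13.1% of other neurons. Oligodendrocytes also hold *Onecut2*, in 24.4% of their nuclei, whereas the share was at most 1.64% in the other non-neuronal types. Its mean level in oligodendrocytes was 139 CPM, not under that of the cluster. At 2000 UMIs per nucleus *Onecut2* was found in 23.3% of the cluster, 3.16% of other neurons and 20.1% of oligodendrocytes. That thinning left out 5416 of 16816 oligodendrocytes, which held fewer UMIs. *Onecut1* (chr9:74861921-74891781) measured 26.6, 66.2, 29.8 and 44.6 CPM, 11.1-fold over other neurons, and *Onecut3* (chr10:80494835-80517276) 12.2, 21.0, 16.8 and 23.3 CPM, 13.2-fold. Of the 219 nuclei, 165 (75.3%) held a UMI of at least 1 of these 3 genes and 84 of at least 2, against 14.8% of other neurons and 24.5% of oligodendrocytes with at least 1. These shares were not thinned, so they follow depth too.

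*Lhx3*, *Lhx4*, *Sox14* and *Shox2* are transcription factor genes known from excitatory interneurons of the ventral hindbrain and spinal cord. *Sox14* and *Shox2* were chosen here after their values were seen, and *Lhx3* and *Lhx4* came from the list of transcription factors. *Lhx4* (chr1:155698031-155751684) measured 22.2, 9.69, 6.52 and 25.5 CPM, 12.3-fold over other neurons. *Lhx3* (chr2:26200212-26208289) measured 13.3, 6.46, 8.38 and 4.25 CPM, 11.4-fold. All 4 libraries of the cluster were above all 4 libraries of other neurons for both genes, whereas control and AgRP-Gq;POMC-Gi libraries overlapped. *Shox2* was higher by 3.54-fold and *Sox14* by 28.4-fold, the latter at 8.22 ± 5.70 CPM, with libraries from 3.23 to 14.9 CPM. These levels are low, and each gene was found in few nuclei, 33 for *Lhx4*, 22 for *Lhx3*, 35 for *Shox2* and 18 for *Sox14*. A UMI of *Lhx3* or *Lhx4* was found in 46 nuclei (21.0%), 16, 9, 13 and 8 per library, against 1.63% of other neurons and 0.137% of oligodendrocytes. Of these 46 nuclei, 38 also held *Slc17a6* and 26 also held *Npas1*, which 62 of the 173 nuclei with neither gene held too. Clusters 185 (60.96 CPM), 184 (47.99) and 115 (32.5) were higher for *Lhx4*, and all 3 hold fewer nuclei than cluster 30, between 15 and 82. Cluster 184 was highest for *Lhx3* (45.6 CPM) and *Shox2* (103), and cluster 185 for *Sox14* (65.7), each several-fold above cluster 30. For *Shox2* cluster 30 ranked 13.

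**Figure D2:**
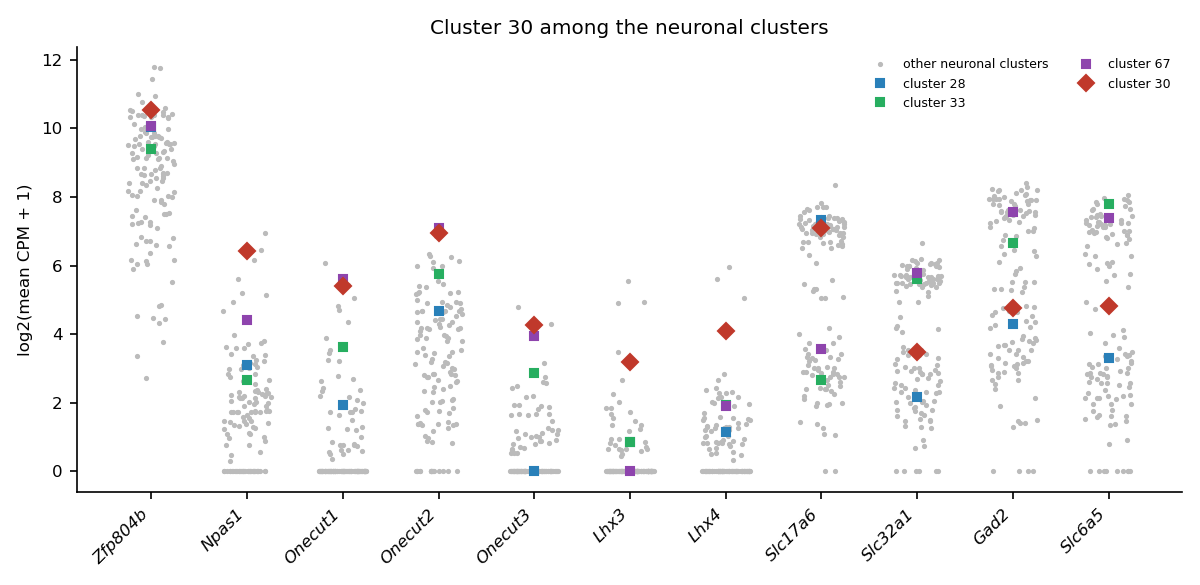
Mean level over the 4 libraries, as log2(CPM + 1), of 11 genes in each of the 134 neuronal clusters, with cluster 30 as a red diamond and the most like clusters 28, 33 and 67 as squares. Cluster 30 is near the top for *Npas1* and the *Onecut*, *Lhx3* and *Lhx4* genes, and it lies with the high group for *Slc17a6* and well under the high group for *Slc6a5*, *Gad2* and *Slc32a1*.

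Of the 113 transcription factor genes of the list that were in the matrix, 94 had a UMI in the cluster and 43 had one in at least 5% of its nuclei. Among these 43 genes, 13 were more than 2-fold above other neurons and 9 under 0.5 times their level, against 165 and 200 of all 12997 genes detected as widely. Other factors were hardly detected. *Zic1*, a factor of dorsal neural tube derivatives, gave 0 UMIs in 219 nuclei, which allows up to 1.37% of nuclei with a UMI and sets no limit on nuclei that express it, while 16.1% of other neurons and 0.975% of oligodendrocytes held it, the former at a mean of 23.3 CPM. *Nfib*, of the nuclear factor I family known from late-born neurons, was at 0 CPM in both control libraries, and at 4.66 and 4.25 with AgRP-Gq;POMC-Gi, 2.23 ± 2.58 against 108 in other neurons. The *Hox* genes, which record position along the body axis, were also on the low side. *Hoxa3* measured 7.76, 8.08, 8.38 and 8.49 CPM, against 29.9 in other neurons, and *Hoxb4* 7.67 ± 4.61 against 27.4. Of 30 *Hox* genes 8 were detected widely enough to compare, 4 of them under 0.5 times the level of other neurons and none above 2-fold, with a median log2 ratio of -0.59 against 0.01 over all genes.

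Among genes in at least 25% of the cluster's nuclei, the one with the largest ratio outside the transcription factors was *Pmfbp1* (chr8:109494027-109542640), best known from sperm. It stood at 26.6, 74.3, 29.8 and 48.8 CPM, 8.97-fold over other neurons, second among clusters. The 15 genes with the largest ratios among those in at least 25% of the nuclei also included *Npas3*, the relative of *Npas1*, at 941 ± 69.5 CPM (2.72-fold), the secreted semaphorin gene *Sema3c* (2.98-fold), the prolactin receptor gene *Prlr* (2.39-fold), the adhesion receptor gene *Adgrv1* (2.71-fold), *Megf11* (2.67-fold), the diacylglycerol kinase gene *Dgkk* (2.77-fold), the imprinted gene *Zim1* (2.29-fold) and the transcripts *Lncenc1* (3.13-fold) and *Gm38825* (2.80-fold). *Npas3* is not particular to neurons, since 85.2% of oligodendrocytes held it. Of the genes widely detected in other neurons, those lowest in the cluster were *Trpm3*, a cation channel gene, at 177 ± 55.7 against 777 CPM, and *Mef2c*, a factor regulated by activity, at 55.0 ± 19.9 against 227. *Tcf4*, *D030068K23Rik*, *C130071C03Rik*, *Arpp21*, *Slc24a3* and *Vav3* followed, at 0.277 to 0.445 times the level of other neurons.

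Receptors for feeding and visceral signals were mostly near the level of other neurons. Of 40 such genes compared, 2 were more than 2-fold higher and none under 0.5 times, with a median log2 ratio of 0.04. *Htr4*, the serotonin receptor that raises cyclic AMP, measured 112 and 120 CPM in control against 145 and 153 in AgRP-Gq;POMC-Gi nuclei, 2.21-fold over other neurons. It was detected in 67.1% of the cluster, 28.3% of other neurons and 0.149% of oligodendrocytes. Clusters 28, 33 and 67, the 3 most like cluster 30, stood at 92.1, 92.3 and 97.8 CPM of *Htr4*, against 132 ± 19.7. *Sstr2*, a somatostatin receptor gene, stood at 14.5 ± 3.78 CPM against 8.62. Of 55 peptide and secreted ligand genes 19 were compared, and of these none was above 2-fold and 2 were under 0.5 times. *Gal*, the galanin gene, was found in 1 nucleus. Of 13 calcium-binding protein genes 6 were under 0.5 times the level of other neurons and none was above 2-fold, with a median log2 ratio of -0.19. None of the 41 glutamate, GABA and glycine receptor genes and none of the 62 ion channel genes compared was above 2-fold, and 2 of each were under 0.5 times. Of 83 adhesion and guidance genes 1, *Sema3c*, was above 2-fold and 4 were under 0.5 times, and *Cdh11*, a cadherin gene, stood at 150.1 ± 9.13 CPM against 81.4. Of 15 monoamine, acetylcholine and nitric oxide genes 3 were detected widely enough, and none of these was above 2-fold or under 0.5 times.

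Taken as a sum the cluster was glutamatergic. *Slc17a6* measured 134 and 147 CPM under control genotype against 95.9 and 161 with AgRP-Gq;POMC-Gi, a mean of 135 ± 28.1 against 74.6 in other neurons. *Slc32a1* measured 11.1, 14.5, 13.0 and 2.12 CPM, so that the mean of *Slc17a6* was 13.2 times that of *Slc32a1*, past the 4-fold used to name a transmitter class. The genes of the other vesicular glutamate transporters, *Slc17a7* and *Slc17a8*, were found in 1 and 2 nuclei. The glycine transporter gene *Slc6a5* was uneven, at 33.2, 27.5, 47.5 and 2.12 CPM, and *Gad2*, which makes GABA, at 29.9, 21.0, 48.4 and 6.37. The extremes of both genes came from the AgRP-Gq;POMC-Gi group, replicate 1 highest and replicate 2 lowest.

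Single nuclei showed that the inhibitory genes sat in a minority of nuclei that largely lacked *Slc17a6*. The split was chosen after the values were seen and is described without a test. Of 219 nuclei, 33 (15.1%, exact 95% interval 10.6 to 20.5) held a UMI of at least 2 of the 4 inhibitory genes *Gad1*, *Gad2*, *Slc32a1* and *Slc6a5*, a share that was 37.8% in other neurons and 0.476% in oligodendrocytes. They numbered 8 (13.6%) and 6 (14.0%) in control replicates 1 and 2. Among AgRP-Gq;POMC-Gi nuclei they numbered 18 (21.95%) in replicate 1 and 1 (2.86%) in replicate 2. Their median depth was 14062 UMIs against 13062 in the other 186 nuclei of the cluster. *Slc17a6* was found in 4 of the 33, all in AgRP-Gq;POMC-Gi replicate 1, and in 142 of the 186 (76.3%), while 130 nuclei held *Slc17a6* and no inhibitory gene and 35 held neither.

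Some genes that did not enter the split were found in unequal shares of the nuclei on its 2 sides, and others in near equal shares. *Lhx3*, *Lhx4* and *Shox2* were found in 0 of the 33, which allows up to 9.09% of nuclei with a UMI of each, and in 22, 33 and 35 of the 186. *Pax2*, a factor known from inhibitory interneurons of the dorsal hindbrain and spinal cord, was found in 16 of the 33 (48.5%) and 25 of the 186 (13.4%), and *Lhx1* in 8 (24.2%) and 15 (8.06%), both genes chosen after their values were seen. *Lhx5*, a relative of *Lhx1* chosen in the same way, was found in 1 of the 33 and 8 of the 186. *Npas1* was found in 7 of the 33 (21.2%) and 81 of the 186 (43.5%), and *Zfp804b* in 23 (69.7%) and 164 (88.2%). *Onecut2* was on both sides, in 24 of the 33 (72.7%) and 127 of the 186 (68.3%), as were *Htr4*, in 24 (72.7%) and 123 (66.1%), *Pmfbp1*, in 11 (33.3%) and 59 (31.7%), and *Megf11*, in 16 (48.5%) and 86 (46.2%). The authors removed predicted doublets, that is, droplets with more than 1 nucleus, and the part of doublets in this split was not tested. Without the 33 nuclei *Slc17a6* stood at 55.7 times *Slc32a1*, a ratio that leaving them out must raise, since *Slc32a1* was among the genes that chose them.

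**Figure D3:**
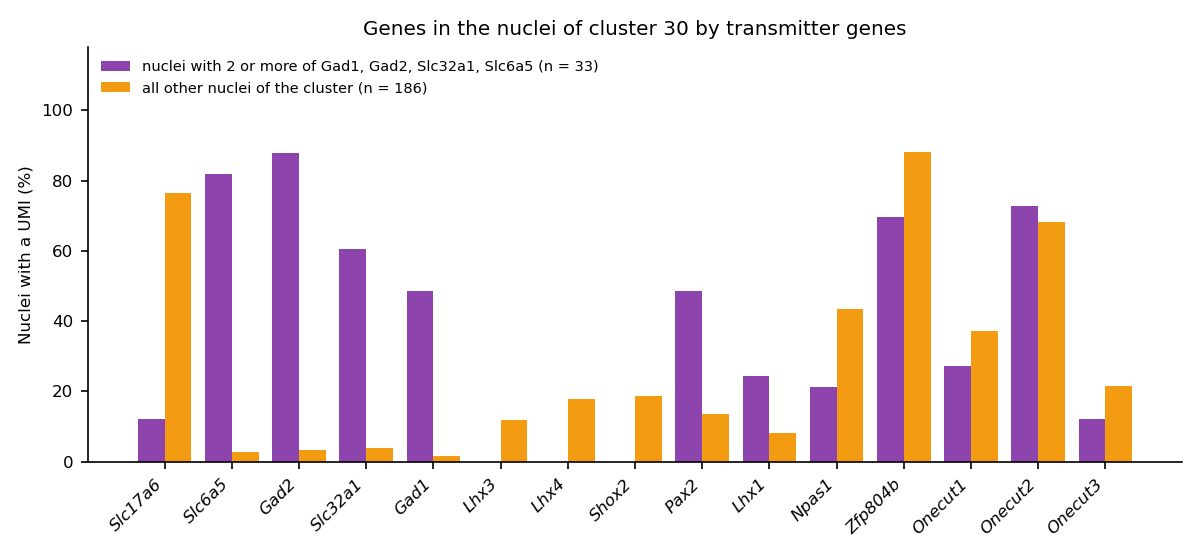
Share of nuclei of cluster 30 with a UMI of each of 15 genes (percent), in the 33 nuclei with at least 2 of *Gad1*, *Gad2*, *Slc32a1* and *Slc6a5* (purple) and in the other 186 (orange). The first 5 genes are those of transmitters, 4 of which made the split; *Lhx3*, *Lhx4* and *Shox2* are at 0 in the 33 nuclei, and *Onecut2* is at 72.7% and 68.3%.

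The clusters whose profile was most like that of cluster 30 were of both transmitter classes. Over 13986 genes at 20 CPM or more in some cluster, Spearman's correlation of mean log2(CPM + 10) was 0.971 with cluster 28 (Mecom/Sema3a), 0.970 with cluster 33 (Il1rapl2/Slc6a5) and 0.969 with cluster 67 (Foxp2/Il1rapl2), against a median of 0.914 over 133 clusters. These correlations are across genes, which are not independent replicates, in sums that come from the same libraries. Cluster 28 was glutamatergic, with *Slc17a6* at 161 CPM and *Slc6a5* at 8.80, but with *Npas1* at 7.68 and *Onecut2* at 24.8. Clusters 33 and 67 were inhibitory, with *Slc6a5* at 221 and 167 CPM and *Slc17a6* at 5.32 and 10.96. Cluster 67 shared the Onecut genes with cluster 30, *Onecut1* at 47.7, *Onecut2* at 135 and *Onecut3* at 14.3 CPM, and had 0 CPM of *Lhx3*, *Sox14* and *Shox2*. Cluster 33 was highest of the 4 for *Pax2*, at 145 CPM against 22.5 ± 10.5 in cluster 30. Outside these 4, clusters 137 and 173, picked for their Onecut levels, held *Slc17a6* at 121.8 and 91.1 CPM and *Slc32a1* at 4.79 and 16.8. Cluster 137 held *Onecut1* at 41.96, *Onecut3* at 18.7 and *Npas1* at 34.5 CPM, but *Lhx3* at 1.57 and *Lhx4* at 3.89. Cluster 173 held *Onecut1* at 65.96, *Onecut3* at 26.8 and *Npas1* at 4.84 CPM. A glutamatergic sum with Onecut genes was thus not particular to cluster 30.

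Marker lists of other cell types were summed in the cluster as well, and those of oligodendrocytes, astrocytes and the choroid plexus differed between libraries. The 10 oligodendrocyte markers summed to 205 and 181 CPM in control against 134 and 146 in AgRP-Gq;POMC-Gi libraries of the cluster, and to 355 and 310 against 174 and 227 in other neurons. The 10 astrocyte markers summed to 134 and 139 against 97.8 and 110 in the cluster, and to 217 and 187 against 156 and 184 in other neurons. Both sums were lower in the AgRP-Gq;POMC-Gi libraries without overlap. Groups that did not overlap were also seen in 33.3% of all genes tested. The astrocyte sum includes *Aldoc*, at 66.5 and 64.6 CPM in control against 30.7 and 31.8 in AgRP-Gq;POMC-Gi libraries of the cluster. The part of both marker lists in the differences between the groups was not tested. Markers of vessels and meninges summed to 5.59 to 21.0 CPM and those of oligodendrocyte precursors to 11.3 to 38.2. The 6 microglia markers summed to 175 to 205 CPM, most of it *P2ry12*. This gene stood at 141 ± 13.3 CPM in the cluster and 125 in other neurons but 11.6 in oligodendrocytes, and the microglial gene *Tmem119* was at 0. The ependymal and choroid plexus markers summed to 8.86 and 9.32 CPM in the first replicates and 746 and 450 in the second, with *Folr1* and *Otx2* at 0. *Rbfox3*, the gene of the neuronal protein NeuN, stood at 256 ± 20.0 CPM, as in other neurons (256).

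The share of neurons that fell in the cluster did not follow the groups. It was 2.39% (exact 95% interval 1.82 to 3.07) and 1.57% (1.14 to 2.11) in the control libraries and 2.22% (1.77 to 2.75) and 0.962% (0.671 to 1.34) in the AgRP-Gq;POMC-Gi libraries, intervals that cover counting error only. The libraries of the groups interleave, and the lowest and the second highest share are both from AgRP-Gq;POMC-Gi mice. By the quasi-likelihood test of edgeR over all 134 neuronal clusters the log2 fold change was -0.31 (SE 0.61, adjusted p = 0.870), and 0 clusters were called (0.0%), with 8 (5.97%) at an unadjusted p under 0.05. The direction turned with all kept nuclei as the total (0.21) and without AgRP-Gq;POMC-Gi replicate 2 (0.17) or control replicate 1 (0.02). An exact two-sided permutation test of 2 libraries against 2 cannot go below p = 0.333.

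**Figure D4:**
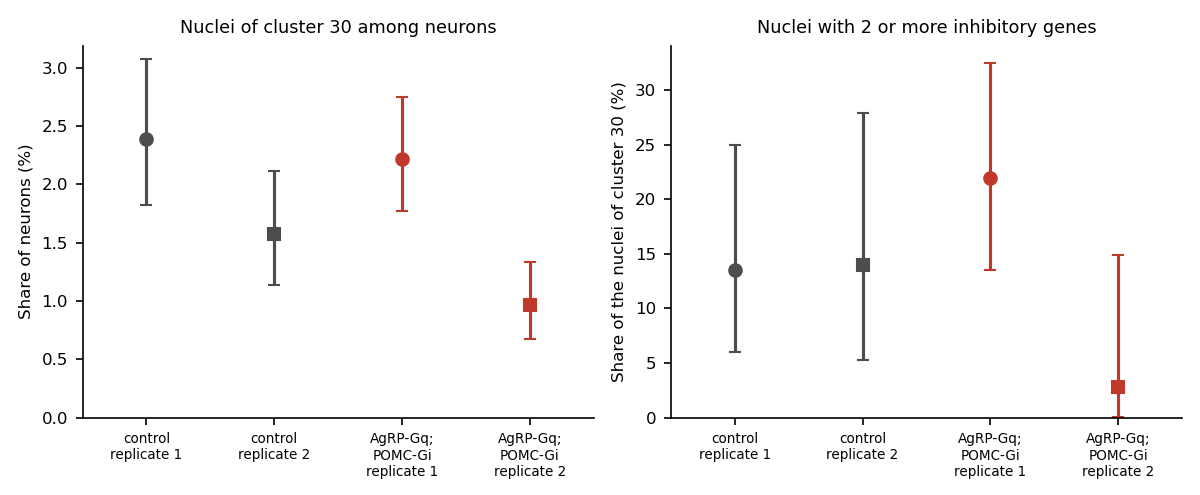
Nuclei of cluster 30 as a share of the neurons of each library (left, percent) and nuclei with at least 2 inhibitory genes as a share of cluster 30 (right, percent), with exact 95% intervals for counting error. The left shares run from 0.962% to 2.39% and the right ones from 2.86% to 21.95%, and in both panels the lowest value is that of AgRP-Gq;POMC-Gi replicate 2.

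The comparison of the groups asked whether the cluster responded when AgRP neurons were activated and POMC neurons silenced. Immediate early genes (IEGs), which neurons transcribe within minutes of activity, had no member that passed the test. Of the study's 10 IEGs, 7 were found in at least 5% of the nuclei. *Btg1*, an antiproliferative IEG, gave 9 and 4 UMIs in control against 13 and 8 in AgRP-Gq;POMC-Gi nuclei, and was the only one of the 10 whose groups did not overlap, at 9.97 and 6.46 against 12.1 and 17.0 CPM. Its log2 fold change was 0.75 (SE 0.55), in a set of 12997 genes of which 33.3% had groups that did not overlap. *Gem* measured 0.88 (SE 0.74), *Junb* -0.40 (SE 0.57), *1700016P03Rik* -0.24 (SE 0.43), *Nr4a1* -0.09 (SE 0.63), *Jun* 0.04 (SE 0.56) and *Homer1* 0.01 (SE 0.25). Adjusted p-values over all 12997 genes, by edgeR's quasi-likelihood test, were 0.988 to 0.995, and the smallest unadjusted p was 0.178. The SEs were widest in the genes with the fewest UMIs.

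*Fos*, the IEG most used to map activity, was found in under 5% of the nuclei and so was outside the test. It gave 2 and 0 UMIs in control against 5 and 1 in AgRP-Gq;POMC-Gi nuclei, each in a nucleus of its own. *Fosl2* gave 10, 0, 1 and 0 UMIs, 9 of them in 1 nucleus, and *Nr4a3* gave 0 in 219 nuclei, which allows up to 1.37% of nuclei with a UMI. In the alternative without a filter on genes, *Fos* had a log2 fold change of 1.51 (SE 1.32, adjusted p = 0.924 by edgeR). *Fosl2* had -2.95 (SE 1.26, unadjusted p = 0.0189, adjusted p = 0.924) with those 9 UMIs in a nucleus of control replicate 1, and neither gene passed the test. Of 40 further activity genes 22 were tested, and 0 were called, with 3 (13.6%, against 4.78% of all genes tested) at an unadjusted p under 0.05 and a median log2 fold change of -0.17.

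Across all genes the groups differed at 1 of 12997 genes (0.00769%), with 621 (4.78%) at an unadjusted p under 0.05, 282 higher and 339 lower in AgRP-Gq;POMC-Gi libraries. The gene called was *H3f3b* (chr11:116021912-116027962), which encodes a histone of the replication-independent H3 type. It gave 63 and 39 UMIs in control against 210 and 54 in AgRP-Gq;POMC-Gi nuclei, at 69.8 and 63.0 against 196 and 115 CPM. Its log2 fold change was 1.35 (SE 0.23, adjusted p = 0.0316), and AgRP-Gq;POMC-Gi replicate 1 was highest. The call was lost without AgRP-Gq;POMC-Gi replicate 1 (log2 fold change 0.77, adjusted p = 0.585), without control replicate 2 (adjusted p = 0.0651), without TMM factors (0.100), without the 33 nuclei with inhibitory genes (0.0545) and in DESeq2 (1.00). In the other neurons of the same libraries *H3f3b* measured 81.4, 88.4, 175 and 100.96 CPM, a log2 fold change of 0.78 (adjusted p = 0.816), and the difference between the 2 log2 fold changes did not pass the test (0.50, adjusted p = 1.00).

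Below the threshold, the smallest p-values among higher genes after *H3f3b* belonged to *Cpa6*, a carboxypeptidase gene, with 13, 3, 43 and 23 UMIs (log2 fold change 2.10, SE 0.41, adjusted p = 0.0894). Of its 82 UMIs, 26 came from 1 nucleus of AgRP-Gq;POMC-Gi replicate 1. *Cpa6* was called with filterByExpr (adjusted p = 0.0361) and with the replicate block (0.00205). *Sema3c*, one of the 15 genes with the largest ratios to other neurons, gave 35, 16, 112 and 27 UMIs, at 38.8 and 25.9 against 104 and 57.3 CPM (1.45, SE 0.29, adjusted p = 0.0894), while it measured 16.7, 21.5, 22.1 and 15.6 CPM in other neurons. It is not particular to the cluster, since the most like cluster 28 stood at 51.8 ± 17.7 CPM against 56.6 ± 34.4. *Gm20713*, *Adcy2*, which makes cyclic AMP, *Synpr*, of synaptic vesicles, and the secreted factor *Tafa1* had log2 fold changes of 0.85, 0.84, 1.67 and 0.75, with adjusted p of 0.188 to 0.422, and *Synpr* was called with the replicate block (adjusted p = 0.0384). The lower genes had adjusted p of 0.368 to 0.811. *Lrrc3b* measured 86.4 and 72.7 against 32.6 and 46.7 CPM (-1.03, SE 0.25), and *Zfp516* 34.4 and 35.5 against 8.38 and 14.9 (-1.65, SE 0.42). *Aldoc*, the aldolase most abundant in astrocytes, measured 66.5 and 64.6 against 30.7 and 31.8 CPM (-1.004, SE 0.27). The summed astrocyte markers stood at 134 and 139 in control against 97.8 and 110 in AgRP-Gq;POMC-Gi nuclei. These sums include *Aldoc* itself, so they are no separate measure of astrocyte RNA. The part of astrocyte RNA in *Aldoc* was not tested. *Arpp21*, *Acad12* and the proton pump subunit gene *Atp6v0c* measured -0.74, -3.11 and -0.69, *Gm26787* -2.24 with 22 of its 59 UMIs in 1 nucleus, and *Tor2a* gave 6 and 5 UMIs against 0 and 0. *Tor2a* thus reached the 5% minimum through control nuclei alone.

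*Hsd11b2*, which inactivates corticosterone and marks sodium-sensing neurons of the NTS, gave 0 and 0 UMIs in control against 12 and 3 in AgRP-Gq;POMC-Gi nuclei, in 10 and 3 nuclei. All its nuclei with a UMI were of the AgRP-Gq;POMC-Gi group, so it reached the 5% minimum through that group alone. A count of 0 over both control libraries allows 3 UMIs, and against that floor the summed AgRP-Gq;POMC-Gi libraries stood 4.92-fold higher. This value takes their UMIs as exact and depends on summing the libraries, so it is no lower limit. *Hsd11b2* did not pass the test of edgeR (adjusted p = 0.289). In the other neurons it gave 16, 11, 280 and 310 UMIs, a log2 fold change of 4.10 (SE 0.22, adjusted p = 0.00481), and it was the 1 gene of 12997 (0.00769%) called there. The gene lies at chr8:105518755-105523988 and ends 42.7 kb from the nearest base of the *Agrp* record, the gene at which these mice carry Cre. *Atp6v0d1*, which lies between them, measured 95.3 and 82.4 against 97.8 and 110 CPM in the cluster, and 63.6 and 66.4 against 92.6 and 90.1 in other neurons (log2 fold change 0.55, adjusted p = 0.503). Both neighbours were looked up after the values of *Hsd11b2* were seen. Counts assigned to *Agrp* came to 89.8, 123, 89.4 and 63.7 CPM in the cluster and 83.4 to 92.0 in other neurons, and were found in 67.1% and 50.5% of nuclei. The record spans 70.7 kb on the minus strand (chr8:105566698-105637393), and which part of it these UMIs come from is not given by the counts, so they are not read as transcript of the peptide.

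**Figure D5:**
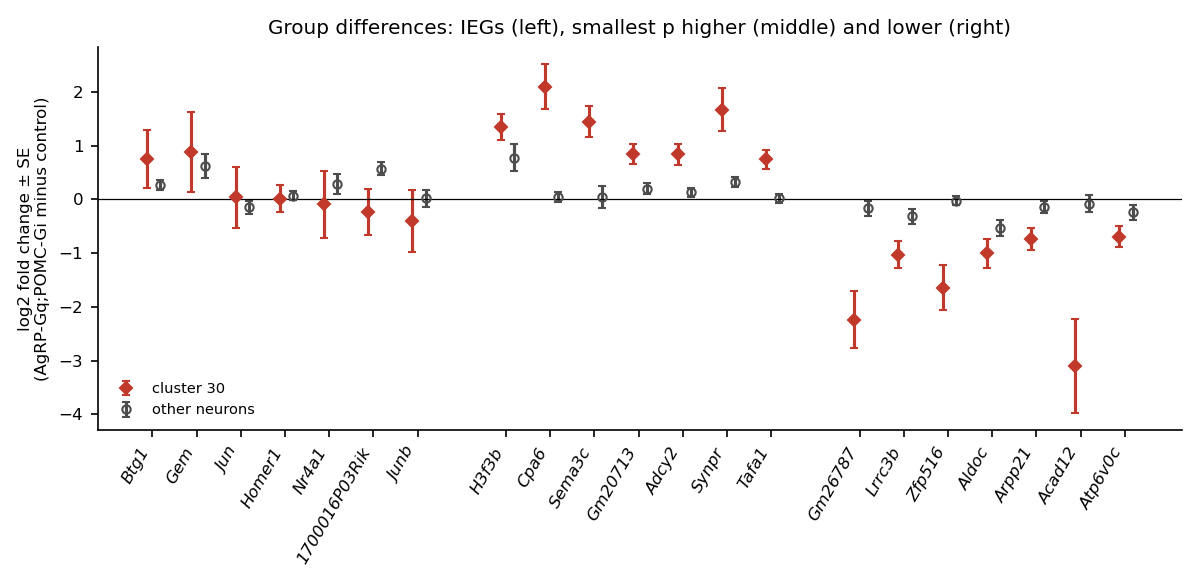
Log2 fold change (AgRP-Gq;POMC-Gi minus control) with its standard error in cluster 30 (red) and in all other neurons (grey) for the 7 tested IEGs and for the genes with the smallest p in each direction, without *Hsd11b2* and *Tor2a*, which have 0 UMIs in a whole group. *H3f3b* is the gene called in cluster 30, at 1.35, and the IEGs lie between -0.40 and 0.88 with errors of 0.25 to 0.74.

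None of the 15 genes with the largest ratios to other neurons was called between the groups. *Sema3c* was called in 5 of the 10 alternatives, among them filterByExpr (adjusted p = 0.0361) and the replicate block (0.00205), and no other gene of the 15 in any. *Npas1* differed by 0.05 (SE 0.23), *Onecut2* by -0.04 (SE 0.19), *Lhx4* by -0.32 (SE 0.54) and *Slc17a6* by -0.14 (SE 0.21) on the log2 scale. *Zfp804b* had a difference of -0.45 (SE 0.17, adjusted p = 0.988 by edgeR) and *Zim1* of -0.79 (SE 0.29, adjusted p = 0.952). The groups did not overlap for these genes, *Sema3c*, *Npas3* and *Gm38825*, that is, for 5 of the 15 genes, where 33.3% of all genes tested had such groups. *Mef2c*, low in the cluster, measured 35.5 and 40.4 against 69.9 and 74.3 CPM (0.99, SE 0.26, adjusted p = 0.587).

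No group of genes on the lists had a member called in the test as reported. Against 4.78% of all genes tested, 6 of 43 transcription factor genes (13.95%) had an unadjusted p under 0.05, as had 8 of 83 adhesion and guidance genes (9.64%), 4 of 62 ion channel genes (6.45%), 4 of 40 receptor genes (10.0%), 2 of 41 glutamate, GABA and glycine receptor genes (4.88%) and 1 of 19 peptide and ligand genes (5.26%). The median log2 fold changes of these lists were 0.00, 0.08, -0.02, 0.06, 0.12 and 0.02, and that of all genes was 0.00. None of the 8 *Hox* genes, the 8 transmitter genes and the 3 monoamine, acetylcholine and nitric oxide genes tested had an unadjusted p under 0.05, and 1 of 13 calcium-binding protein genes did. Of 10 genes induced by glucocorticoids 2 did (median log2 fold change -0.19), and of 15 clock genes none did (-0.25). Of 8 oligodendrocyte markers 2 did, among them *Mbp*, the lowest of the list at -0.67, while 3 of the 8 were above 0 and the median was -0.05.

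Whether the groups differed in this cluster otherwise than in the rest of the neurons was tested over all genes with the library as a block. The test called 0 of 12997 genes (0.0%), with a smallest adjusted p of 0.629. An unadjusted p under 0.05 was found for 525 (4.04%), 242 with a higher and 283 with a lower log2 fold change in the cluster. *Cpa6* (2.05), *Sema3c* (1.29), *Tafa1* (0.72), *Adcy2* (0.71) and *A830018L16Rik* (0.68) had the smallest p-values among genes with a higher log2 fold change in the cluster. Values in brackets are log2 fold changes in the cluster minus those in the other neurons, and not levels. *Zfp516* (-1.64), *4930586N03Rik* (-1.48), *Kcnq5* (-0.68), a potassium channel gene, and *Schip1* (-0.60) were those among the lower ones, with *Tor2a*. The IEGs had adjusted p-values of 1.00 in this test.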

How the data were processed

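Single-nucleus RNA was measured in 4 libraries, 2 for each genotype. Per the submitters' processing notes, the authors counted UMIs with Cell Ranger 7.0.0 on GRCm38 (mm10) and used Seurat 4.3.0, and deposited UMI counts per gene and nucleus, not yet filtered. In their deposited table the mitochondrial percent, the cluster and the cell type stand for each nucleus, and the authors kept nuclei under 10 percent with at least 800 UMIs and 500 genes. Doublets were removed by the authors at an assumed rate of 0.02, and no further caller was run. UMI and gene totals of the counts equal those of the deposited table in 44303 of 44303 barcodes. The authors' joined matrix and their IEG scores were not used.

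UMIs were summed per library over the nuclei of cluster 30, of the other neurons and of each other cluster, and divided by the same nuclei's total to give CPM. Means and SDs are over 4 libraries, and folds are ratios of means. Groups were compared in R 4.3.3 with edgeR 4.0.16 (quasi-likelihood test, TMM factors). The SE given with an edgeR log2 fold change is its absolute size divided by the square root of the test's F statistic. Genes entered where 5% or more of the cluster's nuclei held a UMI, with Benjamini-Hochberg adjustment over all of them and 0.05 as threshold. Differences between cluster 30 and the other neurons were tested as an interaction with the library as a block, and shares of neurons over all neuronal clusters without TMM factors. The mixed-model program of the authors, nebula, was not used, and glmmTMB 1.1.9 stood in as an alternative for the IEGs, with DESeq2 1.42.0 as another for all genes. The tests were also run on simulated data, and those results are not reported here.

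Named genes were the study's 10 IEGs, every gene called or the 8 with the smallest p in each direction (5 for the interaction), the 15 genes highest and 8 lowest against other neurons, marker, transmitter and sex-linked genes, and members of the gene lists at rank 1 to 15 or at 120 or lower among neuronal clusters. *Shox2*, *Sox14*, *Pax2*, *Lhx1*, *Lhx5*, *Agrp* and *Atp6v0d1* were added after their values were seen, as was the split by inhibitory genes. A few genes that the rule names are not reported here. The members and the gene lists, which come from general knowledge, were chosen with earlier results of these data known. Positions are those of GENCODE M21. Intervals are exact (Clopper-Pearson) at 95%, and intervals and limits for a count of 0 (3 counts) cover counting error only. With 35 to 82 nuclei per library, fold changes of genes of a few UMIs have wide errors. Tables and figures came from Python 3.11.15 (pandas 2.3.3, numpy 2.4.6, scipy 1.17.1, matplotlib 3.10.9).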

Additional observations from a re-analysis of the deposited data

How the results depend on the processing

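The count of genes called between the groups in cluster 30 was 1 and depended on the processing. It was 0 without TMM factors (617 at an unadjusted p under 0.05), 0 in DESeq2 (47) and 0 without the 33 nuclei with inhibitory genes (640), a setting added after seeing the data. It was 10 without a filter on genes and 3 with filterByExpr, *H3f3b*, *Cpa6* and *Sema3c*. Leaving out 1 library gave 1 to 44 calls, 44 without AgRP-Gq;POMC-Gi replicate 2, 22 without AgRP-Gq;POMC-Gi replicate 1, 8 without control replicate 1 and 1 without control replicate 2, where the lone library of a group is assumed to vary like the others. The interaction count of 0 became 0 to 7 on leaving out a library, 7 without AgRP-Gq;POMC-Gi replicate 2, 6 without AgRP-Gq;POMC-Gi replicate 1 and 1 without control replicate 2, and was 0 in the other settings. The cause of these changes was not tested.

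The labels number the libraries 1 and 2 in both groups. Deviations of libraries with the same number correlated at r = -0.015 over 12997 genes, and the labels tie the numbers to no litter or day, so the libraries were not treated as pairs, although both second libraries held far more *Ttr*. With the replicate block 4 genes were called, *H3f3b*, *Cpa6*, *Sema3c* and *Synpr*, and the block log2 fold change of the share of neurons was -0.40.

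That share, at -0.31, turned to 0.21 with all kept nuclei as the total, and ran from -1.04 to 0.17 on leaving out a library (0.02 without control replicate 1, 0.17 without AgRP-Gq;POMC-Gi replicate 2, -1.04 without AgRP-Gq;POMC-Gi replicate 1).

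Of the 7 tested IEGs, those with an unadjusted p under 0.05 numbered 0 in every setting but 1, without the nuclei with inhibitory genes (*Btg1*, log2 fold change 1.27). *Homer1* turned to -0.048 without TMM factors and -0.064 in the mixed model, and ran from -0.20 to 0.25 on leaving out a library (-0.14 without AgRP-Gq;POMC-Gi replicate 2). *Jun* turned to -0.029, -0.022 and -0.0028 without TMM factors, in the mixed model and without the nuclei with inhibitory genes, and ran from -0.22 to 0.17 on leaving out a library. In the same way *Nr4a1* ran from -0.48 to 0.29, with 0.080 where AgRP-Gq;POMC-Gi replicate 2 was absent. *1700016P03Rik* ran from -0.52 to 0.25.

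Of the 15 leading genes, 13 stayed above 2-fold in thinned shares, without *Zfp804b* and *Npas3*, and 14 to 15 on leaving out a library. The ratio of *Slc17a6* to *Slc32a1* ran from 9.75 to 15.9 on leaving out a library. Of the 3 clusters most like cluster 30, 1 remained with genes at 100 CPM or more, 2 with Pearson's correlation and 2 to 3 on leaving out a library.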
